A study of Mus musculus with 84 samples.

Results

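The livers of obese mice given semaglutide at 20 nmol/kg were compared with the livers of obese mice given vehicle, across all genes. Members were chosen by their labels, namely liver tissue with the treatment group Mono_Ago_20 (6 libraries) or Vehicle (6 libraries), and make up 12 of the 84 libraries of the series. All animals of both groups were male C57BL/6J mice made obese by a high-fat diet (diet-induced obese, DIO), 22 weeks old at the start, and were dosed once a day under the skin for 30 days. Semaglutide, coded EX10970 in the labels, is a long-acting peptide that activates GLP-1R, the receptor of glucagon-like peptide-1, and the vehicle mice carried the same diet and injections without the peptide. Each library is 1 mouse, and no transgene, deletion or lean group is part of the comparison, so obesity itself was not compared with leanness. The livers of mice on the same diet that received semaglutide at 100 nmol/kg (Mono_Ago_100) or BI 456906, an agonist of both the glucagon receptor (GCGR) and GLP-1R, at 20 nmol/kg (Dual_Ago_20) are used at the end (6 libraries each).

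The liver keeps blood glucose up between meals by gluconeogenesis and stores glucose as glycogen and as fat after meals. Insulin from the pancreas turns fat and glycogen synthesis on and gluconeogenesis off, while glucagon acts in the opposite direction through its receptor on hepatocytes. GLP-1R sits mainly on pancreatic islet cells and on neurons that control appetite, and hepatocytes are generally held to carry little of it. GLP-1R agonists lower food intake and body weight. In obese mice the liver also holds fat droplets, activated macrophages and matrix-forming stellate cells.

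The tissue label held against its defining markers. Albumin (Alb) lay at 45972 TPM (43236 to 54898) in vehicle and at 53687 TPM (47224 to 59044) under semaglutide. Of the 14 genes listed as markers of pancreas, muscle, kidney, gut or blood, 10 did not pass the filter on low values. Whole reads recovered from the deposited values numbered 40479375 to 46477987 per vehicle library and 21676902 to 44367319 per semaglutide library, the shallowest being semaglutide library 77. The first principal component of the 1000 most variable genes held 48.6% of the variance and separated the groups, and vehicle libraries 44 and 47 lay closer to the treated libraries than the other 4 vehicle libraries did. Levels are given as TPM, a share of transcripts that allows for gene length, and a level such as 45972 TPM (43236 to 54898) is the median of 6 libraries with the lowest and the highest in parentheses. Differences are log2 fold changes of semaglutide 20 nmol/kg minus vehicle ± their standard error (SE) from the limma/voom test (n = 6 libraries per group), whose Benjamini-Hochberg adjusted p is the FDR. The log2 fold changes come from reads per gene, not from TPM, so the ratio of 2 TPM medians can differ from them. Every value is a share of its own library and not an amount of RNA per cell.

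Of 15964 genes tested, 504 were called higher (3.16%) and 467 called lower (2.93%), where a call needs a log2 fold change of at least 1 in size and an FDR of at most 0.05. At an FDR of at most 0.05 without a limit on size, 3674 genes were higher (23%) and 3744 lower (23.5%). All 6 semaglutide values lay above all 6 vehicle values for 2086 genes (13.1%) and below them for 1549 (9.70%). The median log2 fold change over all genes was -0.034. On the TPM scale the split leaned to rises, with 4161 genes higher and 2197 lower at log2(TPM + 0.1) and 4099 higher and 2267 lower at log2(TPM + 1). A verb such as rose or fell is used below only for a gene with an FDR of at most 0.05, and the shares 23% and 23.5% are what a gene list has to be read against.

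**Figure D1:**
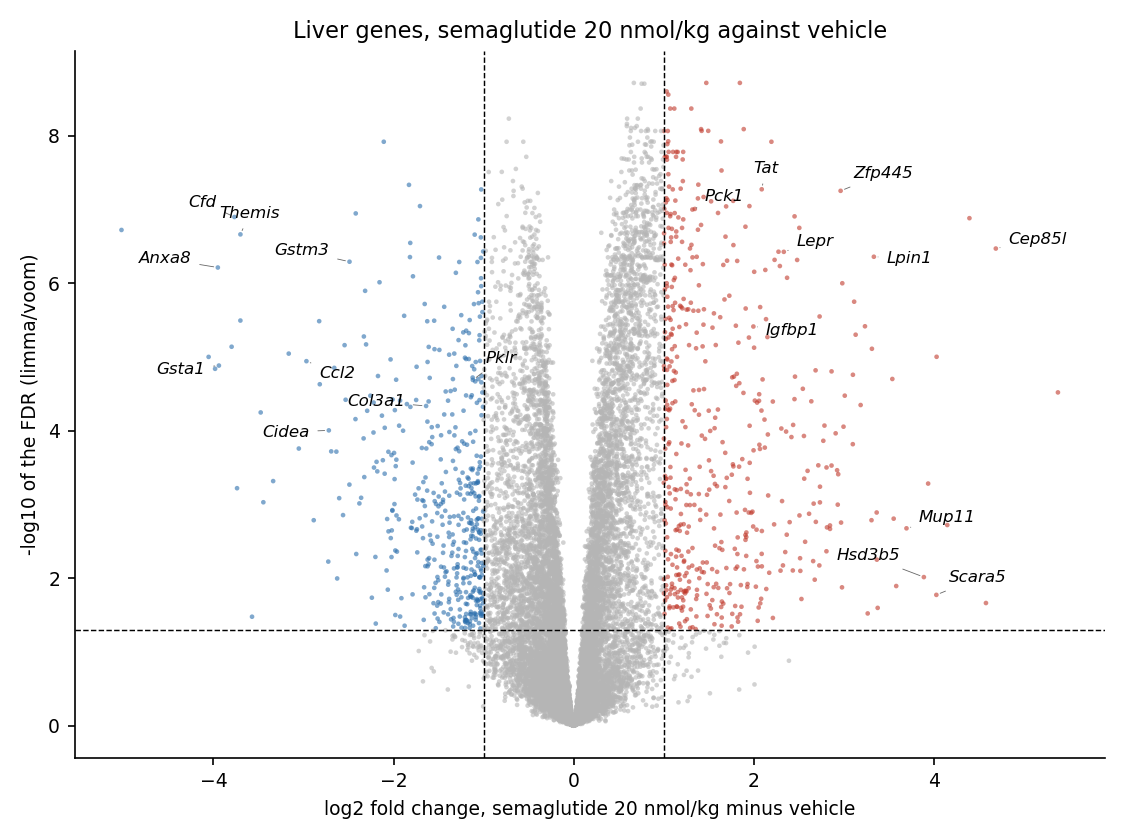
Each point is 1 of the 15964 genes tested in liver, with the log2 fold change of semaglutide 20 nmol/kg minus vehicle on the x axis and -log10 of the limma/voom FDR on the y axis. Red points are the 504 genes called higher, blue points the 467 called lower, dashed lines mark the thresholds, and the labelled genes are described in the text.

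A gene's length moved with its direction of change. The median exonic length was 3976 bases over all genes tested, 6385 bases for the genes that rose and 2966 bases for those that fell. Among the longest 20% of genes 1568 rose and 264 fell, whereas among the shortest 20% 264 rose and 1025 fell. The mean log2 level of the longest 10% of genes minus that of the shortest 10% was 2.97 to 3.40 in the vehicle libraries and 3.62 to 3.80 in the semaglutide libraries, without overlap, and its group means were 3.50 to 3.84 in the other 5 treated groups. Reads of the mitochondrial genome took 4.32 to 4.79% in vehicle and 3.71 to 4.14% under semaglutide. Among the called genes, 85 of those higher and 15 of those lower carry the annotation TEC, a class of transcripts that awaits experimental proof, and 314 and 354 are protein coding. The part of these library properties in the results was not tested. With the trend of log2 fold change on length removed, 474 genes were called higher and 381 lower, and the text says below where this ends or makes the call of a gene it names.

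**Figure D2:**
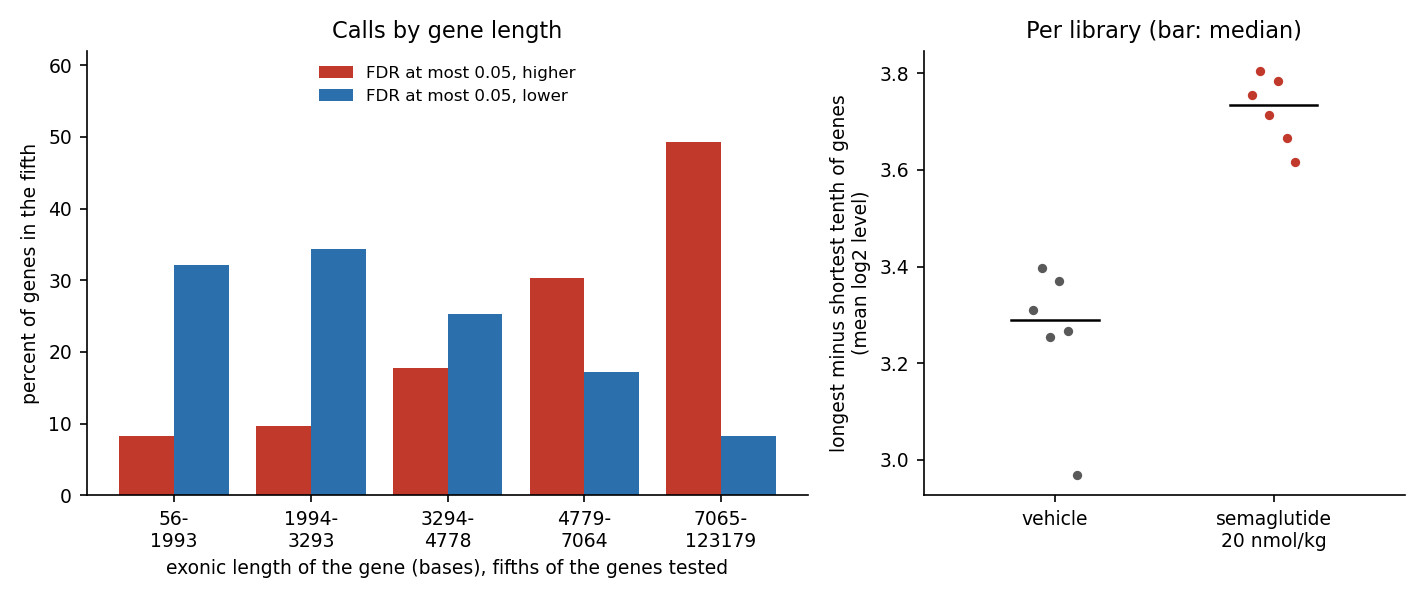
Left, percent of genes in each of 5 equal bins of exonic length (bases) that were higher (red) or lower (blue) at an FDR of at most 0.05, and right, the mean log2 level of the longest 10% minus the shortest 10% of genes in each library, with 1 point per library and a bar at the median of 6. Rises go from 264 of 3187 genes in the shortest bin to 1568 of 3184 in the longest, and the 2 groups of libraries do not overlap on the right.

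The receptors through which semaglutide or related hormones act were examined first. Glp1r, the target of semaglutide, had 0 to 4 reads per library in vehicle and 0 to 4 under semaglutide. Gipr, the receptor of the related incretin GIP, had 0 to 1 and 0 reads. Both lay at or near the floor of 3 reads and did not pass the filter, so a difference was not detectable at this depth. Gcgr, the glucagon receptor, was well expressed, at 227 TPM (216 to 229.9) in vehicle and 216 TPM (204 to 231) under semaglutide. The groups overlapped and the difference did not pass the test (log2 fold change -0.14 ± 0.069, FDR 0.0983).

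Receptors of other metabolic hormones rose. Lepr, the leptin receptor, whose soluble form the liver releases, rose from 1.75 TPM (1.46 to 2.59) in vehicle to 10.5 TPM (6.8 to 14.7) under semaglutide (log2 fold change 2.33 ± 0.32, FDR 3.76e-07). All 6 treated libraries exceeded the highest vehicle library. Insr, the insulin receptor, rose from 17.3 TPM (12.7 to 26.7) to 40.8 TPM (31.6 to 42.6), again without overlap (log2 fold change 0.76 ± 0.10, FDR 2.47e-07). Of the 5 receptors tested 3 rose and none fell (against 23% and 23.5% of all genes). Adra1b, the alpha1-adrenergic receptor of hepatocytes, had a log2 fold change of -0.17 (FDR 0.284).

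Among the genes of gluconeogenesis the rises were limited to Pck1 and its coactivator. Pck1 (chromosome 2, 173153048 to 173159273, + strand, GRCm38) encodes the cytosolic enzyme that commits oxaloacetate to glucose synthesis. It stood at 933 TPM (632 to 1783) in vehicle and 2629 TPM (2476 to 2906) under semaglutide (log2 fold change 1.32 ± 0.17, FDR 1e-07). Vehicle library 47 was the highest of its group and still lay below every treated library. Ppargc1a, a coactivator of Pck1 transcription in fasting, rose from 1.63 TPM (1.07 to 1.84) to 4.23 TPM (3.28 to 4.59), without overlap (log2 fold change 1.19 ± 0.14, FDR 5.23e-08). G6pc, which releases free glucose, was at 302 TPM (229 to 372) and 352 TPM (272 to 431), and its difference did not pass the test (log2 fold change 0.20 ± 0.17, FDR 0.342).

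Of the 11 genes on the gluconeogenesis list 2 rose and 3 fell (against 23% and 23.5% of all genes). Their median log2 fold change was 0.043, and -0.096 with the length trend removed. Mpc1, a subunit of the mitochondrial pyruvate carrier, fell from 406 TPM (341 to 461) to 306 TPM (254 to 334) (log2 fold change -0.46 ± 0.086, FDR 3.76e-05). Fbp1, fructose-1,6-bisphosphatase, fell from 1110.3 TPM (1018 to 1221) to 938 TPM (891 to 1005) (log2 fold change -0.34 ± 0.085, FDR 0.00113), but this was -0.15 with an FDR of 0.123 when the length trend was removed. Pcx, pyruvate carboxylase, fell too (log2 fold change -0.30 ± 0.078, FDR 0.00191). None of these falls reached the size of a call, and neither Pck2, the mitochondrial form (0.043, FDR 0.765), nor Slc37a4, the glucose-6-phosphate transporter (0.046, FDR 0.797), passed the test.

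The promoters of 3 genes that rose are shown because each holds a short motif tied to the hormone or clock signals named here. They are RefSeq sequences on GRCm38.p6 and run from 250 bases before to 50 bases after the annotated start in the direction of the gene. Capitals mark the motif letters. The motifs searched on both strands were TGACG, the core of the cAMP response element, CAAAACA, the core of the insulin response element of Igfbp1, and CACGTG, the E-box bound by CLOCK and BMAL1. No pair of these motifs shares letters in the 3 windows.
Pck1 (chr2:173152823-173153122, + strand): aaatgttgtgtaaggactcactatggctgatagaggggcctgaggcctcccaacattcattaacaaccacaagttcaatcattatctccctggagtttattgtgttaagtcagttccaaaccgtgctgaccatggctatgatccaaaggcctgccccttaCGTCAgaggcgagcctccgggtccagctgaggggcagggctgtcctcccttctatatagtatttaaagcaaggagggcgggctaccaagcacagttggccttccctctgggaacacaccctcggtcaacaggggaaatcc
Igfbp1 (chr11:7197537-7197836, + strand): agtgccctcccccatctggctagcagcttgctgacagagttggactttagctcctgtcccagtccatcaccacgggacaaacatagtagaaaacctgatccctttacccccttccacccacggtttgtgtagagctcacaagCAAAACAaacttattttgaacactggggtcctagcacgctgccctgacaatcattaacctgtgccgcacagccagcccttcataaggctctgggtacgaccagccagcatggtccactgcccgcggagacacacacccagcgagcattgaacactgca
Per1 (chr11:69098699-69098998, + strand): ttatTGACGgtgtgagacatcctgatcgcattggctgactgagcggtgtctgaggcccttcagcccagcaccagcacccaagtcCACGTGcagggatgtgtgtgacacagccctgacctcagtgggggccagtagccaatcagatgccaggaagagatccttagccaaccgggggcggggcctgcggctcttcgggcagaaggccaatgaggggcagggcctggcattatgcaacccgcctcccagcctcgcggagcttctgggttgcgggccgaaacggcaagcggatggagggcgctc

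In Pck1 the TGACG core lies on the minus strand and begins 90 bases before the start. In Igfbp1 CAAAACA begins 108 bases before the start. Per1 holds TGACG beginning 246 bases and CACGTG beginning 166 bases before the start. TGACG was present in 20.8% of all 32851 promoters, 29% of those of the genes tested, 35.2% of those of the genes called higher and 19.1% of those of the genes called lower. The same shares were 6.28%, 4.61%, 6.67% and 3.76% for CAAAACA and 7.15%, 9.42%, 10.9% and 6.99% for CACGTG. These are matches of letters in a window, not sites shown to be bound, and some genes have more than 1 promoter in the table.

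Among genes of insulin, growth hormone and IGF signalling more rose than fell. Igfbp1, a secreted IGF-binding protein that insulin represses, rose from 131 TPM (75.1 to 178) in vehicle to 478 TPM (386 to 689) under semaglutide (log2 fold change 2.0 ± 0.32, FDR 3.87e-06). Igfbp2, a binding protein that is low in fatty liver, rose from 275 TPM (204 to 437) to 675 TPM (533 to 816) (log2 fold change 1.10 ± 0.17, FDR 2.05e-06). For neither gene did any treated library reach down into the vehicle range. Foxo1, the transcription factor that insulin keeps out of the nucleus, rose from 7.78 TPM (6.15 to 8.39) to 15.7 TPM (14.9 to 17.5) (log2 fold change 1.00 ± 0.12, FDR 2.65e-08). Enho, which encodes the secreted peptide adropin and overlaps the locus of Dnaic1, rose from 5.58 TPM (4.15 to 8.66) to 21.7 TPM (13.8 to 36.5) (log2 fold change 1.78 ± 0.32, FDR 1.85e-05). These groups were separate as well.

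Of the 16 genes on this list 7 rose (43.8% against 23% of all genes) and 1 fell, with a median log2 fold change of 0.44. The adaptors of the insulin receptor Irs2 and Irs1 rose by 0.83 and 0.62 (FDR 0.00098 and 0.00011), and Trib1 by 0.89 (FDR 0.00029). The fall was Trib3, a pseudokinase that restrains insulin signalling (-0.50, FDR 0.00165). Igf1 itself was at 331 TPM (284 to 353) and 351 TPM (296 to 404), and its difference did not pass the test (log2 fold change 0.24 ± 0.13, FDR 0.142). Ghr, the growth hormone receptor, had a log2 fold change of -0.10 (FDR 0.399), which was -0.34 (FDR 0.00716) with the length trend removed.

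**Figure D3:**
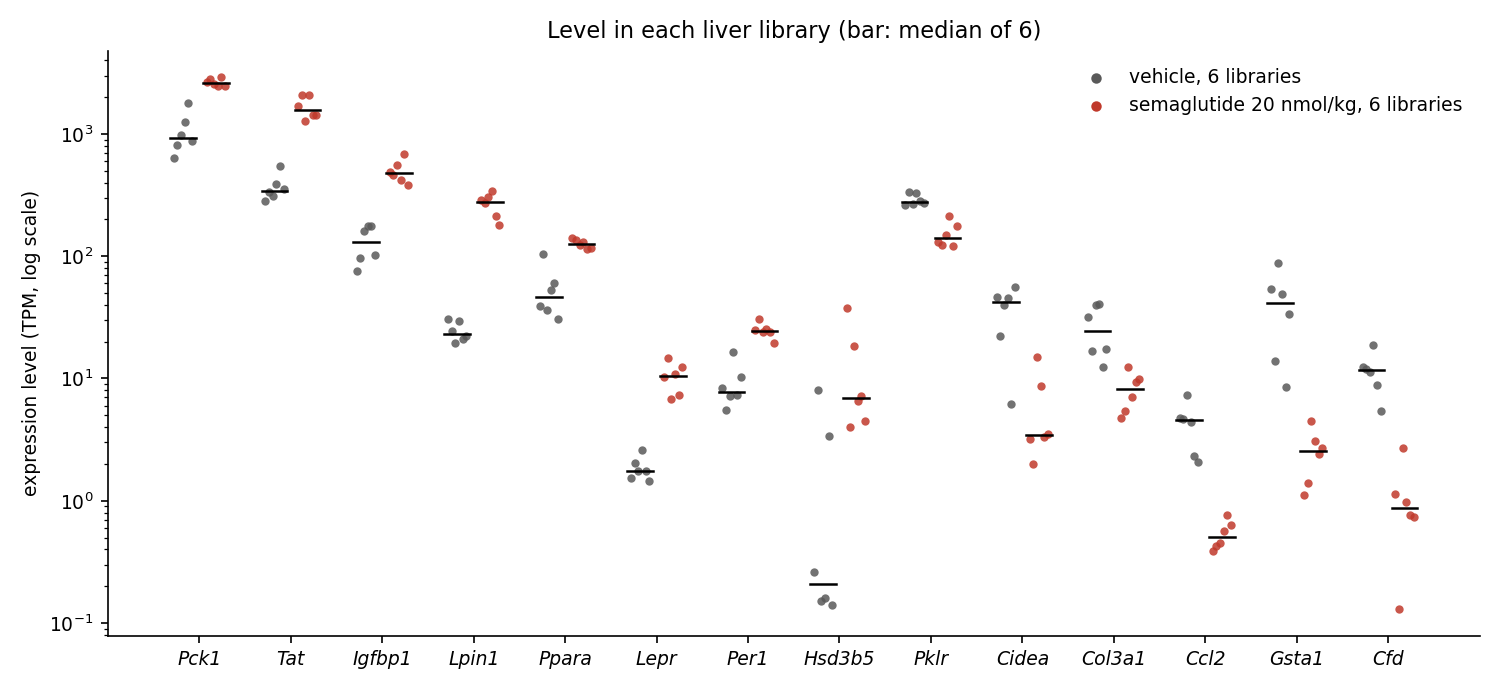
TPM on a log scale for 14 genes in each of the 6 vehicle libraries (grey) and the 6 libraries of semaglutide 20 nmol/kg (red), with 1 point per library and a bar at the median. The groups are separate for Pck1, Tat, Igfbp1, Lpin1, Ppara, Lepr, Per1, Pklr, Col3a1, Ccl2, Gsta1 and Cfd, and overlap for Hsd3b5 and Cidea.

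Hepatokines, the proteins by which the liver signals to other organs, went both ways. Of 17, 5 were higher and 5 lower (against 23% and 23.5% of all genes). Fgf21, a fasting and stress hormone, was at 22.9 TPM (16.1 to 32.6) and 32.6 TPM (20.8 to 41.8), and its difference did not pass the test (log2 fold change 0.32 ± 0.24, FDR 0.282). Hamp, which encodes the iron hormone hepcidin, rose from 2279.8 TPM (879 to 3565) to 5319 TPM (2449 to 7740.2) (log2 fold change 1.19 ± 0.40, FDR 0.0144). The groups of Hamp overlapped, since 3 vehicle libraries exceeded the lowest treated library, and without vehicle library 46 it was 0.94 with an FDR of 0.0565 and the list counted 3 rises. Lect2, a hepatokine that is high in fatty liver, fell from 166 TPM (135 to 186) to 107 TPM (83.6 to 113), without overlap (log2 fold change -0.77 ± 0.13, FDR 5.02e-06). Inhbc, an activin subunit, rose from 35.6 TPM (33.2 to 40) to 60 TPM (48.5 to 84.4), also without overlap (log2 fold change 0.64 ± 0.15, FDR 0.00054). Gdf15, a stress hormone that curbs appetite, had a log2 fold change of -0.17 (FDR 0.732).

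Glycolysis and glycogen genes leaned downward, with 8 of 18 lower (44.4% against 23.5% of all genes), 2 higher and a median log2 fold change of -0.21. Pklr, the liver pyruvate kinase and a target of the glucose sensor ChREBP, fell from 278 TPM (263 to 333) to 141 TPM (122 to 214) (log2 fold change -1.12 ± 0.20, FDR 2.05e-05). Even the highest treated library was below the lowest vehicle library. Ugp2, which makes the UDP-glucose used for glycogen, fell from 190.4 TPM (163.5 to 197) to 116 TPM (98.6 to 129) (log2 fold change -0.81 ± 0.14, FDR 1.66e-05). Gyg, glycogenin, the primer of glycogen, fell from 4.83 TPM (3.92 to 5.69) to 3.19 TPM (2.21 to 3.93) (log2 fold change -0.70 ± 0.14, FDR 0.000134). In the opposite direction Ppp1r3b, a glycogen-targeting phosphatase subunit, rose from 108 TPM (102 to 129) to 178 TPM (172 to 227) (log2 fold change 0.63 ± 0.16, FDR 0.00158). The groups of Ugp2 and Ppp1r3b were separate, and those of Gyg touched.

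The smaller falls included Khk, ketohexokinase, which starts fructose breakdown (-0.32, FDR 0.0422), a call lost with the length trend removed (FDR 0.409). With the length trend removed 6 of the 18 were lower and 2 higher.

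Genes of fat synthesis changed in both directions. Lpin1 (chromosome 12, 16535669 to 16610966, - strand), a phosphatidate phosphatase that also coactivates PPARalpha, had the largest rise on the glucose and lipid lists, from 23.3 TPM (19.4 to 30.6) in vehicle to 280.1 TPM (179 to 343) under semaglutide (log2 fold change 3.33 ± 0.46, FDR 4.38e-07). Every treated library held more than 5 times the level of the highest vehicle library. Mogat1, a monoacylglycerol acyltransferase raised in fatty liver, fell from 10.6 TPM (5.21 to 14.9) to 2.84 TPM (1.93 to 3.91), without overlap (log2 fold change -1.82 ± 0.25, FDR 4.43e-07). Thrsp, also called Spot 14, a lipogenic protein, fell from 397 TPM (244 to 628) to 106 TPM (68.5 to 325) (log2 fold change -1.73 ± 0.42, FDR 0.00086). Treated library 76, at 325 TPM of Thrsp, lay within the vehicle range and the other 5 below it. Acss2, which makes acetyl-CoA from acetate, fell from 72 TPM (59.2 to 119) to 52.3 TPM (29.5 to 84.1), with overlap (log2 fold change -0.83 ± 0.24, FDR 0.0056).

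Of 23 lipogenic genes 7 fell (30.4% against 23.5%) and 2 rose, with a median log2 fold change of -0.21, and 9 fell with the length trend removed. Srebf1, the insulin-driven regulator of the path, fell (log2 fold change -0.62 ± 0.22, FDR 0.0184), as did Acly, ATP citrate lyase (log2 fold change -0.40 ± 0.13, FDR 0.014). Scd1, a fatty acid desaturase, did not pass the test (-0.16, FDR 0.728). Fasn, fatty acid synthase, had a log2 fold change of -0.21 (FDR 0.342), which was -0.53 with an FDR of 0.0151 with the length trend removed. Acaca, the carboxylase that commits carbon to fat, had one of -0.064 (FDR 0.765), which was -0.53 with an FDR of 0.00322 in that setting. The call on these 2 enzymes of fatty acid synthesis thus depended on the setting. Besides Lpin1, Gpam, which starts glycerolipid synthesis, rose (log2 fold change 0.70 ± 0.17, FDR 0.000914).

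Proteins of the lipid droplet fell more often, 8 of 15 (53.3% against 23.5%) with 1 rise. Cidea, a droplet-fusion protein scarce in lean liver, fell from 42.5 TPM (6.18 to 55.6) in vehicle to 3.44 TPM (2.01 to 15.1) under semaglutide (log2 fold change -2.72 ± 0.55, FDR 9.91e-05). The overlap came from vehicle library 47, at 6.18 TPM, since the other 5 vehicle libraries held at least 22.3 TPM. Cidec, its relative, fell from 138 TPM (33 to 165) to 41.8 TPM (27.5 to 65.7) (log2 fold change -1.20 ± 0.48, FDR 0.0396). Vehicle libraries 44 and 47 were again the lowest of their group, and the call on Cidec was lost with the length trend removed (-1.02, FDR 0.088) and in 12 further alternative settings of 24. Fitm1, which takes part in droplet formation, fell from 99.6 TPM (84.5 to 104) to 51.3 TPM (32.3 to 67.6), without overlap (log2 fold change -1.04 ± 0.17, FDR 5.08e-06). Hsd17b13, a droplet enzyme of hepatocytes, fell from 780.2 TPM (513 to 929) to 463 TPM (352 to 545) (log2 fold change -0.79 ± 0.13, FDR 5.51e-06). Plin5, which ties droplets to mitochondria, was the member that rose (log2 fold change 0.65 ± 0.20, FDR 0.00768), while Plin2, the main droplet coat of fatty liver, had a log2 fold change of -0.24 (FDR 0.327).

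The regulator of fatty acid oxidation rose, and the genes around it went in both directions. Ppara, which encodes the fatty acid sensor PPARalpha, rose from 46.2 TPM (30.4 to 105) in vehicle to 126 TPM (115 to 142) under semaglutide (log2 fold change 1.58 ± 0.26, FDR 6.9e-06). Vehicle library 44, at 105 TPM, came nearest to the treated libraries, and the other 5 were at most 59.9 TPM. Cyp4a14, a PPARalpha-driven fatty acid hydroxylase, rose from 808 TPM (627 to 1252) to 1822 TPM (1363 to 2702), without overlap (log2 fold change 1.14 ± 0.24, FDR 0.000207). Cyp4a31, a close relative that may share reads with it, rose from 7.98 TPM (4.89 to 9.81) to 12.3 TPM (8.71 to 21.6) (log2 fold change 0.87 ± 0.30, FDR 0.0152). Cd36, a fatty acid transporter, fell from 134 TPM (95.2 to 167) to 73 TPM (38.9 to 90.4), without overlap (log2 fold change -1.13 ± 0.29, FDR 0.00183).

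Of the 28 genes 5 rose and 7 fell, with a median log2 fold change of -0.061 that was 0.019 with the length trend removed. These shares, 17.9% higher and 25% lower, lay close to those over all genes. Cpt1a, the gate of mitochondrial oxidation, had a log2 fold change of 0.022 (FDR 0.853). The falls included Bdh1, of ketone metabolism (-0.52, FDR 0.0029), and Fabp1, the main fatty acid carrier of hepatocytes (-0.38, FDR 0.0132), the latter not with the length trend removed (FDR 0.171). Without vehicle library 48 the falls numbered 4.

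Cholesterol synthesis genes showed 6 falls and 3 rises among 24 (against 23.5% lower and 23% higher over all genes). Nsdhl, a late enzyme of the path, fell from 35.3 TPM (23.4 to 57.7) to 20.2 TPM (13.1 to 35.6) (log2 fold change -0.88 ± 0.27, FDR 0.00633). Fdps, which makes farnesyl diphosphate, fell from 242 TPM (139.8 to 383) to 139 TPM (90.1 to 226) (log2 fold change -0.78 ± 0.26, FDR 0.0143). Mvk, mevalonate kinase, fell from 10.2 TPM (7.63 to 14.9) to 6.48 TPM (4.77 to 10.6) (log2 fold change -0.71 ± 0.20, FDR 0.00329). In all 3 the groups overlapped, with vehicle library 48 the highest of the 12, and without it Fdps was at -0.61 (FDR 0.059). Srebf2, the regulator of the path, moved the other way and rose (log2 fold change 0.35 ± 0.10, FDR 0.0041; FDR 0.127 with the length trend removed), as did the synthesis enzyme Hsd17b7 (log2 fold change 0.65 ± 0.21, FDR 0.00944).

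In bile acid handling 4 exporters and 2 synthesis enzymes rose. Abcc2, a canalicular pump for conjugates, rose from 112 TPM (97.3 to 122) to 188 TPM (155 to 202), without overlap (log2 fold change 0.92 ± 0.11, FDR 3.83e-08). Abcg8, a sterol exporter whose locus overlaps its partner Abcg5, rose from 32.3 TPM (27.3 to 39.7) to 53.1 TPM (41.6 to 55.5) (log2 fold change 0.58 ± 0.11, FDR 6.26e-05). Cyp2c70, which makes the muricholic acids of mice, rose from 129 TPM (84 to 203) to 233 TPM (205 to 281) (log2 fold change 0.79 ± 0.20, FDR 0.00141). None of these 3 overlapped between groups. Abcb11, the bile salt export pump, and Cyp27a1, of the alternative synthesis path, rose by 0.49 and 0.40 (FDR 0.00042 and 0.00392).

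Cyp7a1, the rate-limiting enzyme of bile acid synthesis, was at 50 TPM (27.2 to 81.6) and 55 TPM (30.4 to 96.7), and its difference did not pass the test (log2 fold change -0.012 ± 0.35, FDR 0.982). Cyp8b1, which makes cholic acid, had a log2 fold change of -0.25 (FDR 0.16). The list counted 6 rises of 17 (35.3% against 23%) and 1 fall. The fall was Slc51b, a basolateral bile acid exporter raised in cholestasis, which rested on 5 to 21 reads per vehicle library and 0 to 6 under semaglutide (log2 fold change -2.49 ± 0.58, FDR 0.000539), and without vehicle library 45 there were 2 falls.

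Amino acid breakdown and the urea cycle changed at single genes. Tat, tyrosine aminotransferase, a classical target of glucocorticoids and cAMP, rose from 345 TPM (285 to 548) in vehicle to 1558 TPM (1271 to 2083) under semaglutide (log2 fold change 2.09 ± 0.25, FDR 5.34e-08). All treated libraries held more than 2 times the level of the highest vehicle library. Cps1, the entry enzyme of the urea cycle, rose from 450.1 TPM (331 to 623) to 888 TPM (810.5 to 1157), without overlap (log2 fold change 0.91 ± 0.19, FDR 0.000187). Sds, serine dehydratase, rose from 145 TPM (117 to 179) to 227 TPM (191 to 386), also without overlap (log2 fold change 0.62 ± 0.24, FDR 0.0289). Nnmt, which methylates nicotinamide, rose from 99.3 TPM (43.9 to 155) to 165 TPM (107 to 248), with overlap (log2 fold change 0.76 ± 0.28, FDR 0.0239). The last 2 calls were less firm. That on Sds was lost in 4 of 24 alternative settings, among them without library 44, 73 or 76, with FDRs up to 0.0918, and that on Nnmt in 5, among them without library 45, 46, 73 or 76, with FDRs up to 0.104.

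The other urea cycle enzymes did not pass the test, with log2 fold changes of 0.11 for Ass1, 0.14 for Asl, 0.26 for Arg1 and -0.20 for Otc and FDRs of 0.533, 0.499, 0.158 and 0.0967. With the length trend removed Arg1, arginase, passed (0.42, FDR 0.0239). Of 23 genes 4 rose and 2 fell (17.4% and 8.70%, both below the shares over all genes). With the length trend removed 8 rose and 1 fell, and over all settings the rises ran from 2, without library 73 or 76, to 9 with quality weights. Without library 45, 73, 74 or 75 there was 1 fall. In the main comparison the falls were Gpt, alanine aminotransferase (log2 fold change -0.45 ± 0.10, FDR 0.000599), and Ddah1, which breaks down methylated arginine (log2 fold change -0.51 ± 0.20, FDR 0.0321; FDR 0.0546 with the length trend removed).

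Among 18 stress genes 5 rose and 3 fell (against 23% and 23.5% of all genes). With the length trend removed 5 rose and none fell. Without vehicle library 48 the rises numbered 2, and without treated library 73 or 74 they numbered 3. Herpud1, part of the machinery that removes misfolded proteins from the endoplasmic reticulum (ER), rose from 218 TPM (191 to 303) to 486 TPM (469 to 617), without overlap (log2 fold change 1.07 ± 0.14, FDR 1.24e-07). Hyou1, an ER folding factor, rose from 32.5 TPM (19.6 to 38.7) to 44.8 TPM (35.5 to 76.4) (log2 fold change 0.52 ± 0.18, FDR 0.0173), a call that was lost with the length trend removed (FDR 0.094) and without library 48 or 74. Creld2, another ER factor, rose from 26 TPM (19.7 to 30.6) to 33.9 TPM (30.6 to 69.5) (log2 fold change 0.52 ± 0.20, FDR 0.0329), but not without library 46, 48, 73 or 74, where FDRs reached 0.126. The groups of both met at their edges. Hspa5, the main ER chaperone, was at 269 TPM (193 to 329.8) and 304 TPM (262 to 458), and its difference did not pass the test (log2 fold change 0.19 ± 0.15, FDR 0.315). Psat1, of serine synthesis, was called lower on 25 to 42 reads in vehicle and 12 to 25 under semaglutide (log2 fold change -0.69 ± 0.29, FDR 0.0437), but its TPM values overlapped fully and 14 of 24 alternative settings lost the call, the one with the length trend removed among them. Atf4, a regulator of the amino acid stress response, had a log2 fold change of -0.091 (FDR 0.294).

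Clock genes rose in 10 of 19 cases (52.6% against 23%), with 2 falls and a median log2 fold change of 0.22. Per1, a repressor of the clock that also responds to cAMP and glucocorticoids, rose from 7.79 TPM (5.52 to 16.4) to 24.6 TPM (19.6 to 30.7) (log2 fold change 1.41 ± 0.18, FDR 1.63e-07). The treated libraries were all above the highest vehicle library, number 46 at 16.4 TPM. Ciart, a clock repressor, rose from 1.99 TPM (1.27 to 4.82) to 5.67 TPM (4.79 to 12.9), the groups just meeting (log2 fold change 1.73 ± 0.59, FDR 0.0159). Usp2, a clock-controlled protease, rose from 11.6 TPM (7.71 to 14.8) to 23.8 TPM (19.2 to 34.8) (log2 fold change 1.03 ± 0.23, FDR 0.00045). Clock, an activator of the cycle, and Arntl, which encodes its partner BMAL1, rose by 0.88 and 0.28 (FDR 9.25e-08 and 0.000534), of which Arntl did not pass with the length trend removed (FDR 0.191).

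Dbp, an output gene of the clock, fell from 10.4 TPM (7.9 to 10.5) to 5.5 TPM (4.51 to 8.18) (log2 fold change -0.90 ± 0.16, FDR 2.53e-05), as did the low-level Bhlhe41 (log2 fold change -0.82 ± 0.24, FDR 0.00453). Nr1d1, a repressor of Arntl, had a log2 fold change of -0.13 (FDR 0.583), and Per3 of -0.0022 (FDR 0.993). With the length trend removed 7 of the 19 were higher and 2 lower. The sources used here give no time of day for single mice, so its part in these values was not tested.

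**Figure D4:**
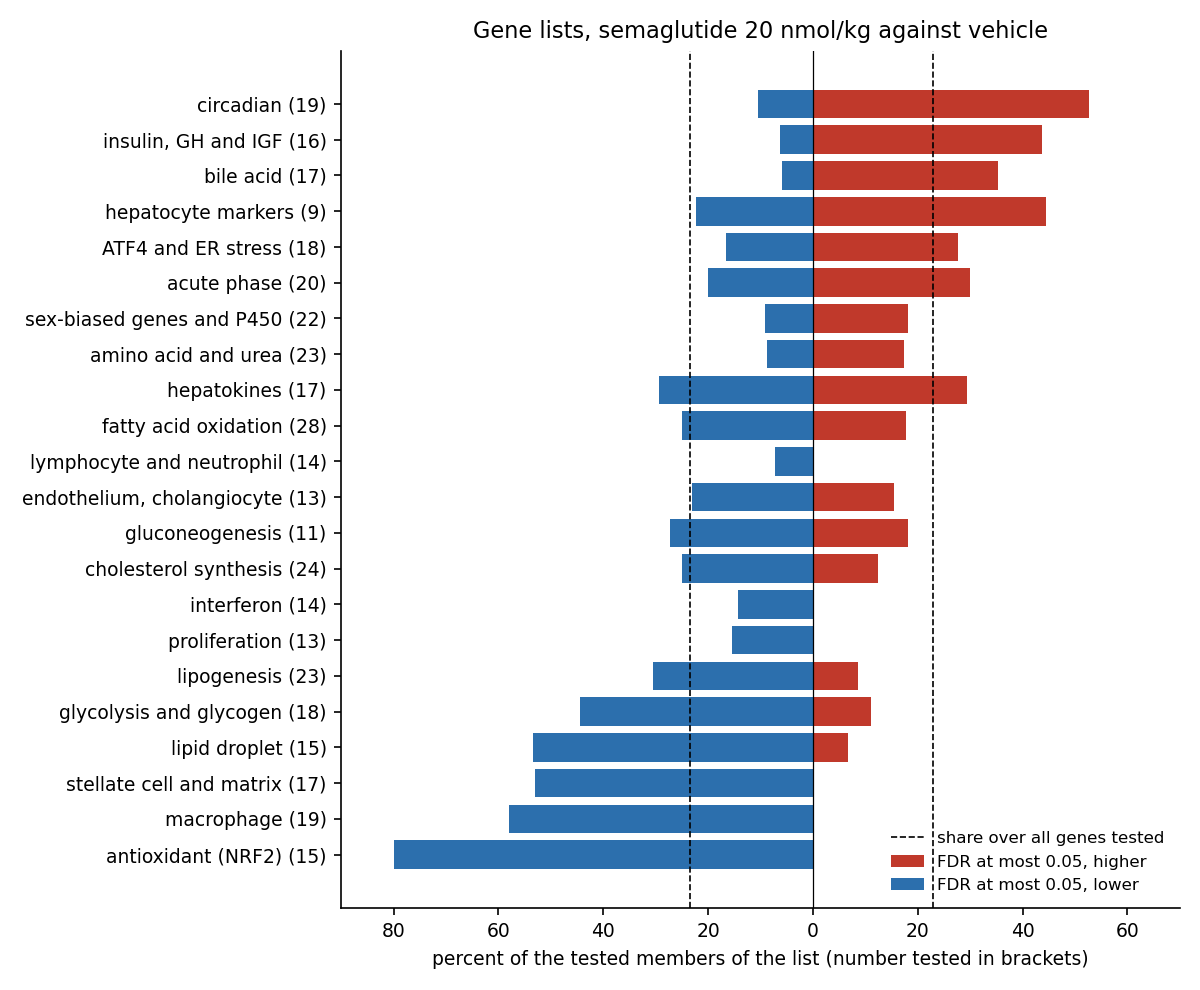
Percent of the tested members of each gene list (number tested in brackets) that were higher (red, to the right) or lower (blue, to the left) at an FDR of at most 0.05, for the lists with at least 9 tested members. Dashed lines show the shares over all genes tested, 23% higher and 23.5% lower. The antioxidant, macrophage, lipid droplet and matrix lists exceed them furthest on the lower side and the circadian list furthest on the higher side. Other lists exceed them as well, among them glycolysis and glycogen (lower) and the insulin, hepatocyte marker and bile acid lists (higher).

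Genes that differ between male and female liver changed at a few members, with a large spread. Hsd3b5, a male-specific steroid enzyme whose locus overlaps Zfp697, rose from 0.21 TPM (0.14 to 7.99) in vehicle to 6.91 TPM (4 to 37.9) under semaglutide (log2 fold change 3.89 ± 1.24, FDR 0.00967). Vehicle libraries 44 and 47, at 7.99 and 3.41 TPM, stood far above the other 4, which were at most 0.26 TPM, and on recovered reads neither edgeR nor DESeq2 passed it, with FDRs up to 0.0685. Mup3, a major urinary protein of male liver, rose from 3050.0 TPM (2179 to 7086) to 7675 TPM (5683 to 9965), with the same 2 vehicle libraries highest in their group (log2 fold change 0.95 ± 0.25, FDR 0.00196). Slco1a1, a male-biased organic anion transporter and one of the 10 largest rises, had that pattern as well. It stood at 62.9 and 55.5 TPM in those 2 libraries, at no more than 8.39 TPM in the other 4, and at 108 TPM (82.5 to 171) under semaglutide (log2 fold change 2.98 ± 0.99, FDR 0.0133). The rise did not extend to all male-biased genes. Mup20 and Cyp4a12a, of the same list as Hsd3b5 and Mup3, did not pass the test (log2 fold changes -0.14 and -0.26, FDR 0.801 and 0.657).

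On the female-biased side Cyp2b13 fell, on 10 to 244 reads in vehicle and 1 to 18 under semaglutide (log2 fold change -3.57 ± 1.39, FDR 0.0333). This call was lost in 10 of 23 alternative settings, with FDRs up to 0.0946, among them without library 43, 45, 46, 73, 74, 75, 76 or 78, which left 1 fall on the list. Cyp2a5, a coumarin hydroxylase with near-identical copies among which reads may be split, fell from 366 TPM (275 to 538) to 197 TPM (144 to 304) (log2 fold change -0.99 ± 0.23, FDR 0.000478). Of the 22 genes on this list 4 rose and 2 fell, a smaller share than over all genes in either direction. Cyp3a11, the main drug-metabolizing P450 of its family, had a log2 fold change of -0.50 (FDR 0.261), and Cyp2e1, which oxidizes ethanol, of 0.033 (FDR 0.835).

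Among acute phase proteins, 6 of 20 rose and 4 fell (against 23% and 23.5% of all genes). The fibrinogen chains, which form clots, rose together. Fga rose from 2203 TPM (1972 to 2655) to 3906 TPM (3464 to 5546) (log2 fold change 0.80 ± 0.14, FDR 2.03e-05) and Fgb from 1030.3 TPM (992 to 1247) to 1789 TPM (1571 to 2178) (log2 fold change 0.70 ± 0.13, FDR 5.19e-05). Fgg, the last of the chains, rose by 0.66 (FDR 8.62e-05), and the treated libraries were higher than all vehicle libraries for Fga and Fgb. The orosomucoids, plasma carriers of lipophilic compounds, fell. Orm2 fell from 38.1 TPM (16.1 to 49.6) to 12.6 TPM (7.31 to 26.2) (log2 fold change -1.39 ± 0.46, FDR 0.0122) and Orm3 from 8.52 TPM (5.87 to 10.2) to 2.62 TPM (1.42 to 5.31) (log2 fold change -1.38 ± 0.36, FDR 0.00177). Orm1 fell by a smaller amount (-0.48, FDR 0.0168), which did not pass with the length trend removed (FDR 0.182), and reads of these similar genes may be split. Saa1 and Saa2, serum amyloid A genes of strong inflammation, had log2 fold changes of 0.55 and -0.15 (FDR 0.513 and 0.894).

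Interferon-induced genes had log2 fold changes below 0 in 13 of 14 cases, with a median of -0.36, but only 2 passed the test, 14.3% against 23.5% of all genes. Ifit3 fell from 19.4 TPM (11.2 to 24) to 9.49 TPM (7.3 to 12.6) (log2 fold change -0.90 ± 0.26, FDR 0.0048) and Ifit2 from 3.24 TPM (1.53 to 4.21) to 1.89 TPM (1.64 to 2.29) (log2 fold change -0.69 ± 0.22, FDR 0.00919). Both encode antiviral proteins, and vehicle libraries 47 and 48 were no higher than the highest treated library for either. The number that fell ran from 2 to 11 over the alternative settings and was 4 without vehicle library 47 and 5 without vehicle library 48.

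Macrophage genes fell in 11 of 19 cases (57.9% against 23.5%), and none rose. Ccl2 (chromosome 11, 82035571 to 82037453, + strand), the chemokine that draws monocytes into tissue, fell from 4.54 TPM (2.06 to 7.36) in vehicle to 0.51 TPM (0.39 to 0.76) under semaglutide (log2 fold change -2.97 ± 0.51, FDR 1.14e-05). The ranges were far apart. Mmp12, a macrophage elastase, fell from 6.56 TPM (2.32 to 13) to 1.43 TPM (0.56 to 4.67) (log2 fold change -1.97 ± 0.50, FDR 0.00141). Itgax, which encodes CD11c, fell from 2.94 TPM (1.25 to 4.34) to 1.01 TPM (0.83 to 1.92) (log2 fold change -1.29 ± 0.39, FDR 0.00648). Lgals3, galectin-3, fell from 22.9 TPM (9.68 to 33.4) to 9.68 TPM (7.86 to 14.5) (log2 fold change -1.07 ± 0.25, FDR 0.000507). In these 3 genes the groups overlapped, and vehicle libraries 44, 47 and 48 were the lowest of their group. Over the alternative settings 7 to 13 of the 19 fell, and 7 did without vehicle library 43, 45 or 46.

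The others that fell were Spp1 (-1.03), Trem2 (-0.90), Cd68 (-0.80), Ccr2 (-0.78), Ctss (-0.71), Cd5l (-0.70) and Lyz2 (-0.49), the last 2 not with the length trend removed (FDR 0.141 and 0.229). Spp1 and Trem2 mark lipid-associated macrophages, Ccr2 is the receptor of Ccl2, and Cd5l is made by resident Kupffer cells. Other Kupffer cell markers did not pass the test, with 0.07 for Clec4f, 0.53 for Timd4 and -0.16 for Vsig4 (FDR 0.872, 0.536 and 0.64). The summed level of the 19 genes was 348 to 688 TPM in vehicle and 303 to 466 TPM under semaglutide. In bulk tissue fewer cells of a type and less RNA per cell cannot be told apart. Lymphocyte and neutrophil genes were all low, at a summed 7.68 to 18.3 TPM and 7.14 to 11.9 TPM, and 1 of 14 fell, the neutrophil gene S100a8, on 14 to 24 reads per library against 0 to 12 (log2 fold change -1.55 ± 0.52, FDR 0.0135). The call on S100a8 was lost in 4 alternative settings. Without treated library 73, where S100a8 was at 0, it was lost (-0.85, FDR 0.0949) and no gene of the list fell. No gene of the list fell with edgeR or at either offset of the TPM scale. In contrast, 2 fell without library 43 or 77 and 3 without library 48.

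Stellate cell and matrix genes fell in 9 of 17 cases (52.9% against 23.5%) and none rose, with a median log2 fold change of -0.71. Col3a1, a fibrillar collagen, fell from 24.6 TPM (12.5 to 41) in vehicle to 8.23 TPM (4.73 to 12.5) under semaglutide (log2 fold change -1.64 ± 0.31, FDR 4.63e-05). Vehicle library 47 and treated library 75 nearly met, both at 12.5 TPM after rounding. Col1a1, the main collagen of scar tissue, fell from 8.91 TPM (4.25 to 19.2) to 3.82 TPM (1.8 to 5.19) (log2 fold change -1.43 ± 0.36, FDR 0.00122). Col1a2, its partner chain, fell from 12.8 TPM (7.31 to 25.1) to 7.5 TPM (4.41 to 9.92) (log2 fold change -0.99 ± 0.26, FDR 0.00225). Timp1, an inhibitor of matrix breakdown, fell from 1.62 TPM (0.31 to 2.68) to 0.23 TPM (0.1 to 0.34) (log2 fold change -2.36 ± 0.57, FDR 0.000813). For these 3 genes vehicle libraries 44, 47 and 48 were the lowest of their group, and library 47 reached the treated range. Acta2, the actin of activated stellate cells, had a log2 fold change of -0.75 (FDR 0.0601), and Des, their desmin, of -0.20 (FDR 0.188). The summed level of the 17 genes was 145 to 341 TPM in vehicle and 110 to 172 TPM under semaglutide.

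Among the markers of bile duct and endothelium the keratins fell. Krt8, which hepatocytes express too, fell from 174 TPM (109 to 239.8) to 88.5 TPM (66.6 to 109) (log2 fold change -1.01 ± 0.15, FDR 1.78e-06). Krt18, its partner, fell from 139.9 TPM (93.1 to 178) to 87.7 TPM (67.6 to 101) (log2 fold change -0.76 ± 0.13, FDR 7.51e-06). Krt19, typical of bile duct cells, fell from 2.55 TPM (1.42 to 6.22) to 1.41 TPM (0.37 to 2.67) (log2 fold change -1.05 ± 0.36, FDR 0.0149). All 3 overlapped between groups, and Krt19 did not pass without library 46 or 73 or in a fit of the 12 libraries only, with FDRs up to 0.0751. Epcam, Krt7 and Sox9 did not pass the test (-0.51, -0.11 and 0.031, FDR 0.266, 0.816 and 0.886). Kdr, an endothelial receptor, rose (log2 fold change 0.40 ± 0.082, FDR 0.000122), but did not pass with the length trend removed (FDR 0.0781). Of 13 proliferation genes Mcm5, of DNA replication (log2 fold change -0.63 ± 0.19, FDR 0.00703), and Ccnd1, cyclin D1 (log2 fold change -0.53 ± 0.21, FDR 0.033), fell. The call on Ccnd1 was lost in 9 of 24 alternative settings, with FDRs up to 0.108, and without library 43, 45, 48, 73, 74 or 76 the list held 1 fall. Mki67, the general marker of dividing cells, had a log2 fold change of -0.20 (FDR 0.482).

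Genes known from fat cells fell, and those most specific to adipocytes were near 0 in both groups. Adipoq, adiponectin, had 2 to 18 reads per library in vehicle and 0 to 2 under semaglutide. Lep, leptin, had 3 to 10 and 0 to 1, Plin1 had 2 to 17 and 0 to 4, and Retn had 1 to 3 in vehicle and 0 in every treated library. These 4 did not pass the filter. Cfd, adipsin, fell from 11.7 TPM (5.44 to 18.7) in vehicle to 0.87 TPM (0.13 to 2.72) under semaglutide, without overlap (log2 fold change -3.77 ± 0.48, FDR 1.27e-07). Pparg, the fat cell regulator that obese liver also expresses, fell from 16.6 TPM (9.95 to 19.9) to 5.75 TPM (4.03 to 7.37) (log2 fold change -1.49 ± 0.25, FDR 8.04e-06). Lpl, lipoprotein lipase, fell from 7.97 TPM (3.23 to 12.3) to 2.99 TPM (2.48 to 4.49) (log2 fold change -1.23 ± 0.28, FDR 0.000371). The fall of Fabp4, a fatty acid carrier shared with macrophages, was smaller, from 35.6 TPM (16.4 to 52.6) to 20.5 TPM (13.8 to 27.3) (log2 fold change -0.67 ± 0.23, FDR 0.0149), and was at -0.53 with an FDR of 0.0565 without vehicle library 46. Pparg was separate between the groups, and Lpl and Fabp4 overlapped. The summed level of the 8 genes was 39.1 to 103 TPM in vehicle and 21.6 to 36.8 TPM under semaglutide, and the part of attached fat tissue in it was not tested.

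Genes listed as antioxidant, detoxifying or controlled by NRF2 fell in 12 of 15 cases (80% against 23.5%), and none rose. The falls numbered 8 with the length trend removed and 7 on the TPM scale. Gsta1 (chromosome 9, 78230656 to 78242684, + strand), a glutathione S-transferase, fell from 41.3 TPM (8.54 to 88) in vehicle to 2.54 TPM (1.12 to 4.52) under semaglutide (log2 fold change -3.94 ± 0.68, FDR 1.31e-05). Vehicle libraries 44 and 47 were the lowest of their group and still exceeded all treated libraries. Gstm3, of another transferase class, fell from 47 TPM (18.4 to 70.2) to 8.09 TPM (4.27 to 9.87) (log2 fold change -2.49 ± 0.35, FDR 5.12e-07). Gsta2, a near copy of Gsta1 with which reads may be shared, fell from 34.4 TPM (17.6 to 45.6) to 10.6 TPM (8.94 to 19.2) (log2 fold change -1.61 ± 0.27, FDR 7.32e-06). Nqo1, a quinone reductase, fell from 8.2 TPM (5.09 to 9.56) to 4.03 TPM (2.88 to 4.88) (log2 fold change -1.0 ± 0.20, FDR 7.16e-05). The groups of Gstm3 and Nqo1 were separate, and Gsta2 overlapped at 1 vehicle and 1 treated library.

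Smaller falls were those of Osgin1 (-0.84), Hmox1 (-0.69), Srxn1 (-0.62), Gsta4 (-0.62) and Gstm1 (-0.61), followed by Sod2 (-0.20), Cat (-0.17) and Sod1 (-0.15), which clear superoxide and peroxide. The 3 that did not pass were Gclc (-0.36, FDR 0.0647) and Gclm (0.039, FDR 0.644), of glutathione synthesis, and Txnrd1, thioredoxin reductase (0.048, FDR 0.489). Of the falls, Osgin1, Hmox1, Cat and Sod1 did not pass with the length trend removed (FDR 0.0889, 0.107, 0.801 and 0.188).

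Hepatocyte markers rose in 4 of 9 cases and fell in 2 (against 23% and 23.5% of all genes). With the length trend removed 5 rose and 0 fell, and Alb passed (0.23, FDR 0.0366). Hnf4a, the regulator of hepatocyte identity, rose from 192 TPM (136 to 201) to 339 TPM (265 to 371), without overlap (log2 fold change 0.79 ± 0.13, FDR 3.35e-06). Serpina1a, an alpha1-antitrypsin gene with close copies, rose from 3419.8 TPM (3140.2 to 4103) to 4786 TPM (4399.6 to 5277) (log2 fold change 0.32 ± 0.078, FDR 0.000915). Apob, the protein of very-low-density lipoprotein, rose from 1461 TPM (1223 to 1513) to 1540.1 TPM (1426 to 1666) (log2 fold change 0.41 ± 0.086, FDR 0.000159), a difference that was 0.0075 with the length trend removed (FDR 0.934). Ttr and Asgr1 were the 2 that fell (-0.26 and -0.22, FDR 0.00269 and 0.0231), and neither passed with the length trend removed (-0.049 and -0.021, FDR 0.481 and 0.832). Without library 47, 48, 74 or 75 the list held 1 fall. The summed level of the markers was 70554 to 83281 TPM in vehicle and 80046 to 93818 TPM under semaglutide. Of the markers of other organs Fabp2, an intestinal fatty acid carrier that mouse liver also expresses, fell (log2 fold change -0.57 ± 0.12, FDR 0.00019), and 2 of the 4 tested fell without vehicle library 43.

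The 10 largest rises among genes at 1 TPM or more, with deposited values that did not overlap, were led by Cep85l, a centrosomal protein gene whose locus overlaps Pln. It went from 0.15 TPM (0.06 to 0.37) in vehicle to 6.15 TPM (5.08 to 9) under semaglutide, on 10 to 47 and 257 to 871 reads per library (log2 fold change 4.69 ± 0.64, FDR 3.39e-07). Scara5, a ferritin receptor, rose from 0.8 TPM (0.45 to 1.12) to 16.2 TPM (6.26 to 28.3) (log2 fold change 4.03 ± 1.39, FDR 0.0168). Fam107a, a stress-induced actin regulator, rose from 0.26 TPM (0.07 to 0.56) to 1.54 TPM (1.26 to 3.96) (log2 fold change 3.37 ± 1.00, FDR 0.00561). All 3 were almost off in vehicle and separate between the groups. Mup11, whose reads may be shared with other major urinary proteins, rose from 369.5 TPM (229 to 832) to 874 TPM (746 to 1793) (log2 fold change 3.70 ± 0.98, FDR 0.00211), and its TPM values overlapped although the deposited values did not.

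The other rises, besides Lpin1 and Slco1a1, were of transcripts at low levels in vehicle. Lmbrd2, whose locus overlaps Skp2, rose from 0.39 TPM (0.28 to 0.7) to 4.75 TPM (2.16 to 8.1) (log2 fold change 3.13 ± 0.51, FDR 5e-06). Klhl11, a ubiquitin ligase adaptor, rose from 0.21 TPM (0.17 to 0.32) to 2.41 TPM (0.77 to 2.86) (log2 fold change 3.01 ± 0.56, FDR 3.35e-05). Zfp445, a zinc finger protein of genomic imprinting, rose from 2.46 TPM (0.71 to 7.55) to 24.9 TPM (16 to 30.6) (log2 fold change 2.96 ± 0.36, FDR 5.6e-08). Treated libraries 77 and 78 were the lowest of their group in all 3. Lcor, a nuclear receptor corepressor, rose from 0.135 TPM (0.11 to 0.17) to 1.31 TPM (0.32 to 2.6), with the same 2 libraries lowest (log2 fold change 2.85 ± 0.75, FDR 0.00193). These 4 genes have exonic lengths of 8589, 2393, 7409 and 7913 bases, against a median of 3976 over all genes tested.

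The 10 largest falls included Anxa8, an annexin of epithelia, which went from 1.12 TPM (0.76 to 1.92) to 0.065 TPM (0.02 to 0.26) (log2 fold change -3.95 ± 0.56, FDR 6.14e-07). Themis, a T-cell signalling gene, fell from 1.58 TPM (0.81 to 1.93) to 0.16 TPM (0.07 to 0.31) (log2 fold change -3.70 ± 0.49, FDR 2.18e-07). Ubd, which encodes the inflammation-induced ubiquitin-like protein FAT10, fell from 10.8 TPM (2.94 to 29.1) to 1.04 TPM (0.3 to 1.62) (log2 fold change -3.47 ± 0.67, FDR 5.66e-05). None of these groups overlapped. Cyp2a22, a P450 with close copies, fell from 17.4 TPM (7.41 to 27.4) to 1.28 TPM (0.46 to 3.68) (log2 fold change -3.34 ± 0.76, FDR 0.000483). Chil1, a chitinase-like protein of inflammation, fell from 1.25 TPM (0.62 to 1.76) to 0.25 TPM (0 to 0.7) (log2 fold change -3.05 ± 0.64, FDR 0.000175). Smpd3, a neutral sphingomyelinase, fell from 4.11 TPM (2.34 to 6.85) to 0.735 TPM (0.16 to 1.86) (log2 fold change -2.54 ± 0.42, FDR 6.93e-06). Of these 3 Chil1 overlapped in TPM, at 1 vehicle library. Gsta1, Cfd, Ccl2 and Gstm3, described above, complete the 10.

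The most abundant genes that passed the test fell by small amounts. Apoe, the ligand by which remnant lipoproteins are taken up, fell from 53786 TPM (50199 to 56783) to 43274 TPM (41713 to 45943) (log2 fold change -0.39 ± 0.064, FDR 5.46e-06). Apoa2, a protein of high-density lipoprotein, fell from 25147 TPM (24179.5 to 27102) to 21393 TPM (20881 to 22537) (log2 fold change -0.33 ± 0.066, FDR 0.000106). Trf, transferrin, fell from 12138 TPM (11347 to 12648) to 10818 TPM (9976 to 11960.2) (log2 fold change -0.34 ± 0.074, FDR 0.000262). The groups of Apoe and Apoa2 were separate, and those of Trf overlapped. The mitochondrial gene mt-Co1 (log2 fold change -0.26 ± 0.07, FDR 0.00237) and the pseudogene Gm10925 (log2 fold change -0.25 ± 0.088, FDR 0.0164) fell too, and both calls were lost with the length trend removed (FDR 0.434 and 0.554), that on Gm10925 also without library 48 or 73. The call on Trf was lost on the TPM scale (FDR 0.0861 at log2(TPM + 0.1)). Its reads per gene were few for its TPM, at 26816 to 37551 per vehicle library over 3320 exonic bases. By comparison mt-Co1 had 624554 to 702869 reads per vehicle library over 1545 bases, at 17267 TPM. The log2 fold change of Trf thus rests on fewer reads than its TPM implies, and the reason was not tested.

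No gene was found to differ between the 2 doses of semaglutide. Against the 6 livers given 100 nmol/kg, 0 of 15964 genes (0%) passed an FDR of at most 0.05 in limma/voom, with 482 at an unadjusted p under 0.05 (3.02% of genes). edgeR and DESeq2 on the recovered reads gave 0 as well, with 449 and 442 genes at that unadjusted p. The 95% interval of a gene's difference, not adjusted for the number of genes tested, reached a median of 0.24 on the log2 scale to either side. The largest difference of any gene was 2.24 in size and did not pass the FDR either. Differences below 0.24, and larger ones too, could thus be missed in most genes.

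The log2 fold changes at 20 and 100 nmol/kg rest on the same vehicle libraries and are given side by side. They were 1.32 and 1.11 for Pck1, 3.33 and 2.87 for Lpin1, and -1.73 and -2.46 for Thrsp. They were -3.94 and -4.79 for Gsta1, -2.97 and -3.09 for Ccl2, and -1.64 and -2.07 for Col3a1. The direct differences, 20 minus 100 nmol/kg, were 0.21 (95% interval -0.13 to 0.56) for Pck1, 0.35 (95% interval -0.047 to 0.74) for Pklr and 0.039 (95% interval -0.10 to 0.18) for Gcgr. These 3 intervals include 0. Those of 3.02% of all genes tested did not, without adjustment for the number of genes. Among them were 2 genes described below, Rgs16 at 1.05 (95% interval 0.51 to 1.59) and Tsc22d3 at 0.44 (95% interval 0.12 to 0.77). Both had a limma/voom FDR of 0.9997.

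**Figure D5:**
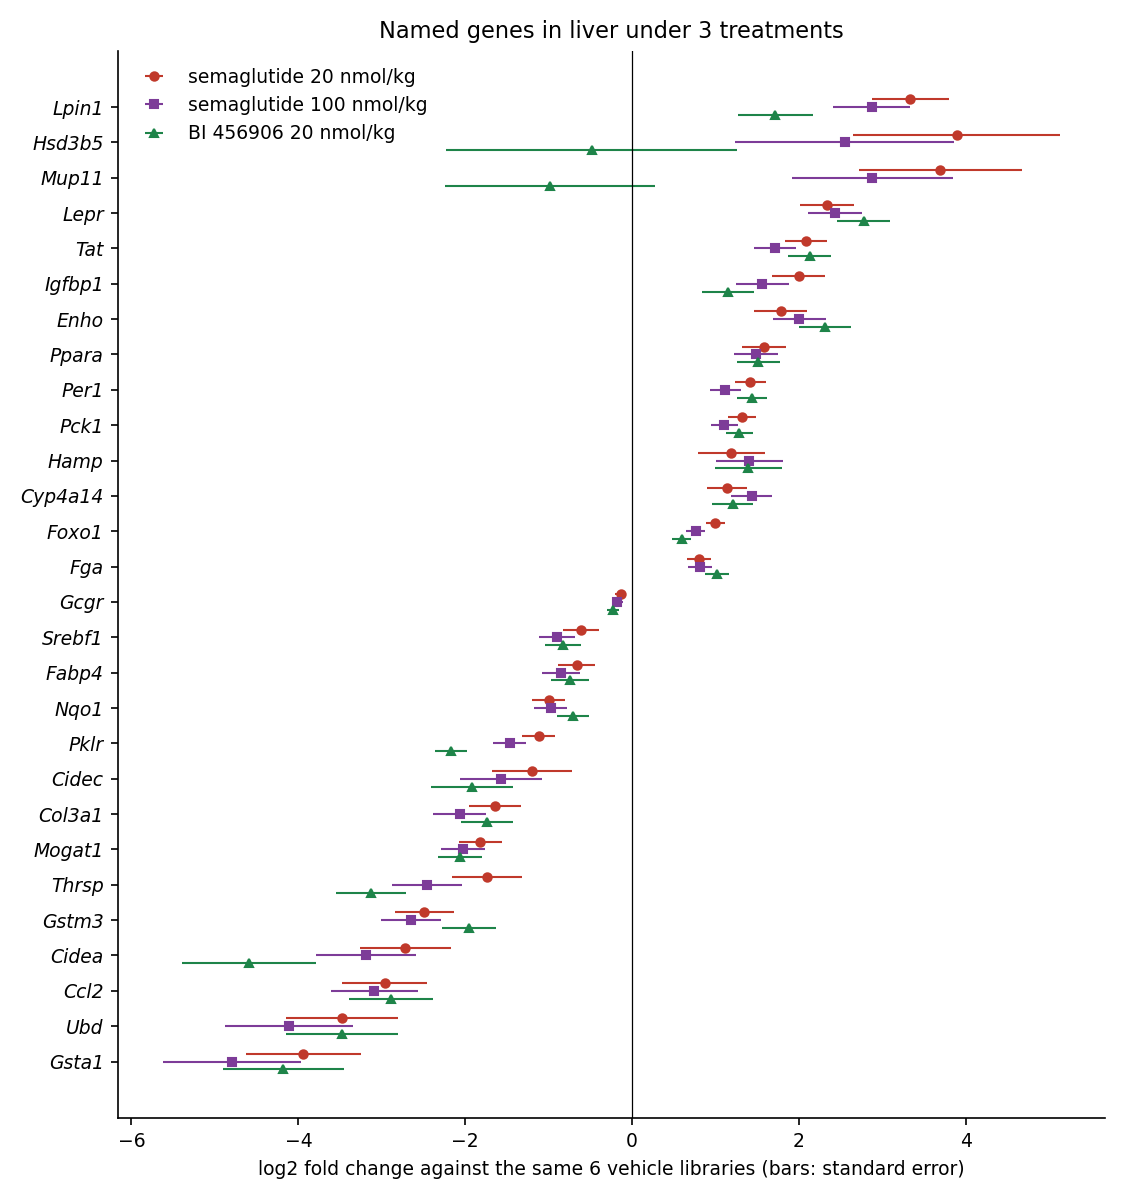
Log2 fold change against the same 6 vehicle libraries for 28 genes under semaglutide 20 nmol/kg (red circles), semaglutide 100 nmol/kg (purple squares) and BI 456906 20 nmol/kg (green triangles), with bars for 1 standard error. The 2 doses of semaglutide lie near each other, and BI 456906 lies lower for Hsd3b5, Mup11 and Pklr.

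BI 456906 at the same molar dose differed from semaglutide at a limited number of genes. Of 15964 genes, 241 were higher with semaglutide (1.51%) and 145 lower (0.908%) at an FDR of at most 0.05, and 217 of these 386 also had an FDR of at most 0.05 for semaglutide against vehicle. Oat, ornithine aminotransferase, was at 481 TPM (381 to 593) in vehicle and 312 TPM (256 to 452) under semaglutide, against a mean of 761 TPM under BI 456906, and the difference of semaglutide minus BI 456906 was -1.22 ± 0.13, FDR 6.83e-08. Gls2, liver glutaminase, was lower with semaglutide by the same comparison (-1.0 ± 0.12, FDR 1.06e-06). Its mean was 183 TPM in vehicle, 182 TPM under semaglutide and 372 TPM under BI 456906. Semaglutide against vehicle did not pass the test for Gls2 (log2 fold change -0.10, FDR 0.497). Ass1, of the urea cycle, was lower too (-0.96 ± 0.14, FDR 5e-05). Its means were 2036, 2364 and 4581 TPM in the same order, and semaglutide against vehicle did not pass for it either (FDR 0.533). In each the level with semaglutide was below that with the dual agonist.

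Higher with semaglutide 20 nmol/kg was Rgs16, a regulator of G protein signalling (difference 2.83 ± 0.26, FDR 5.11e-09). It lay at 53.9 TPM (32.7 to 87) in vehicle, 157 TPM (111 to 213) under semaglutide 20 nmol/kg and a mean of 23.7 TPM under BI 456906. At semaglutide 100 nmol/kg its mean was 77.4 TPM, and the difference from vehicle did not pass the test (log2 fold change 0.40 ± 0.26, FDR 0.202). Pklr was also higher with semaglutide (difference 1.05 ± 0.19, FDR 0.000822). So were the major urinary protein genes Mup11, Mup19 and Mup9, which may share reads (differences of 4.68, 5.30 and 4.67). Under semaglutide 20 nmol/kg their mean levels were 1034.54, 1228.41 and 36.62 TPM. Under BI 456906 they were 361.36, 45.02 and 2.86 TPM. The TPM means of Mup11 thus lay closer together than its difference of 4.68, which comes from reads, so its size depended on the measure. Pck1, Tat and Igfbp1 did not pass the test between the compounds, with differences of 0.032 ± 0.17, FDR 0.965 for Pck1, -0.039 ± 0.26, FDR 0.973 for Tat and 0.85 ± 0.33, FDR 0.184 for Igfbp1. Oat, Gls2, Ass1, Rgs16, Mup19 and Mup9 were named here after their values were seen.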

How the data were processed

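Liver RNA-seq of 12 mice was used, with 30 further liver libraries in the same fit. Per the labels, reads were processed with STAR 2.5.2b, RSEM 1.3.0 and featureCounts 1.5.1 on mm10 (GRCm38), with FastQC 0.11.5 for quality control. The authors deposited read counts per gene divided by 1 factor per library, a scaled signal, and TPM from the same libraries. The labels and the methods differ in library kit and read layout, so strand use is not known here. Whole reads were recovered by dividing by each library's smallest step (tolerance 0.01).

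The main test was limma 3.58.1 voom (R 4.3.3, edgeR 4.0.16 for TMM and filterByExpr) on the deposited signal as stored, over 42 libraries in 7 groups with 35 residual degrees of freedom, without covariates. The design written beforehand assumed counts. The voom offset was 0.5. Called genes had a log2 fold change of at least 1 in size and an FDR of at most 0.05. Since each library is 1 mouse and no batch is named in the labels, no batch was fitted. Gene names and coordinates are from GENCODE M21 (48348 of 48794 identifiers matched), lengths are exonic unions, and promoters are from RefSeq on GRCm38.p6. Counting error limits rare transcripts, with a floor of 3 reads per library.

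Named genes were the 3 incretin and glucagon receptors, Fgf21 and Pck1, up to 4 members of each of 25 gene lists with the largest change at an FDR of at most 0.05, the 10 largest rises and falls at 1 TPM or more without overlap and with a full symbol, and the 5 most abundant genes that passed. Other list members named in the text were picked for their role after their values were seen, and a few named genes are not reported here. The members, lists and tests were chosen with earlier results of these data known. The list symbol Tf was not matched, so hepatocyte markers count 9 of 10. Alternatives were other scaling factors, filters, edgeR, DESeq2 1.42.0, TPM on a log scale, 12 libraries only, sample quality weights and leaving out each library. Removal of the trend on length or GC content (lowess, span 0.3) was added after seeing the data, as was running these settings on the comparisons with semaglutide 100 nmol/kg and BI 456906. In simulated data of semaglutide 20 nmol/kg against vehicle with 200 of 20183 genes changed by 2 on the log2 scale, limma/voom recovered 199 with 2 others called, and edgeR and DESeq2 each recovered 200 with 3 others. The simulated data held far fewer changed genes than the real comparison and no trend on length. That check thus does not give the accuracy of the calls reported here. No 2 libraries of a group were copies (lowest chi-square per degree of freedom 15.9). Epididymal fat was not used here.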

Additional observations from a re-analysis of the deposited data

Results flagged for a closer look

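Among 222 sets of 6 libraries (111 named genes in 2 groups), 11 held 1 library far from its group, 4.95%, about what chance gives with this test (1 in 20). Under semaglutide, library 78 had 0.46 TPM of Slc51b where the others had 0 to 0.11, library 76 had 386 TPM of Sds (others 191 to 260.2) and 19.2 TPM of Gsta2 (others 8.94 to 12.4), and library 75 had 4.67 TPM of Mmp12 (others 0.56 to 1.85). Library 74 had 617 TPM of Herpud1 (others 469 to 504) and 83.6 TPM of Lect2 (others 105 to 113). In vehicle, library 45 had 7.9 TPM of Dbp (others 9.67 to 10.5) and 2.33 TPM of Mcm5 (others 1.1 to 1.49). Library 47 had 1247 TPM of Fgb (others 992 to 1087), library 48 had 1223 TPM of Apob (others 1432 to 1513), and library 44 had 0.32 TPM of Klhl11 (others 0.17 to 0.21).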

How the results depend on the processing

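No paired analysis was possible because the labels give the groups different replicate numbers. Against vehicle, 87 of the 109 named genes tested kept their direction and side of the FDR threshold in all 24 alternatives, 22 planned and 2 added after seeing the data, 21 lost the FDR in at least 1, and Gcgr turned to 0.0048 with the length trend removed. Against 504 genes called higher and 467 lower, a minimum of 10 in every library left 279 and 190, log2(TPM + 1) gave 198 and 78, and log2(TPM + 0.1) gave 249 lower. At an FDR of at most 0.05 log2(TPM + 0.1) gave 2197 lower and log2(TPM + 1) 2267 lower, against 3744. Leaving out 1 library gave 440 to 602 called higher, 381 to 599 called lower, 3442 to 3790 higher and 3124 to 3705 lower at an FDR of at most 0.05. Against BI 456906, where 59 were called higher and 32 lower, a minimum of 10 in every library gave 37 and 15, log2(TPM + 1) 29 and 10, and sample quality weights 92 and 51. At an FDR of at most 0.05 quality weights gave 502 higher and 351 lower, and DESeq2 gave 234 lower, against 241 and 145. Leaving out 1 library gave 151 to 254 higher and 90 to 154 lower, the lowest values being without semaglutide library 75 (151 and 90) or 76 (151 and 99). The cause of these changes was not tested, except that the minimum of 10 tests fewer genes. Transcripts with a few reads per library, such as Glp1r, are limited by depth.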

Other observations

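Genes outside the lists were read after their values were seen and are given without a test of the group. Several genes known to respond to glucocorticoids rose. Fkbp5, a chaperone of the glucocorticoid receptor, rose from 28.5 TPM (19.8 to 36.4) to 114 TPM (90.2 to 164), without overlap (log2 fold change 1.93 ± 0.44, FDR 0.000449). Mt2, a metallothionein, rose from 89.2 TPM (37.4 to 244) to 532 TPM (375 to 1059) (log2 fold change 2.54 ± 0.46, FDR 2.71e-05), Zbtb16 by 2.48 (FDR 4.85e-07), Tsc22d3 by 0.81 (FDR 6.84e-05) and Sgk1 by 0.56 (FDR 0.00419). Il1r1, the interleukin-1 receptor, rose from 5.87 TPM (4.87 to 6.28) to 34.5 TPM (23.9 to 45.9) (log2 fold change 2.45 ± 0.32, FDR 1.24e-07). Lgals1, galectin-1, fell from 150.4 TPM (71.8 to 196) to 32.9 TPM (17.4 to 48.5) (log2 fold change -2.16 ± 0.32, FDR 9.72e-07), and Cxcl10, an interferon-induced chemokine, fell by 1.99 on the log2 scale (FDR 0.0002).

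Gene families taken by symbol differed in direction, and their shares stand against 23% higher and 23.5% lower over all genes. Of 19 glutathione S-transferases 15 fell and none rose (10 fell with the length trend removed), and of 19 chemokines 11 fell and 1 rose (5 and 1 with a minimum of 10 in every library, and no rise without treated library 73 or 74). Of 32 collagen genes 12 fell and 4 rose, against 15 and 3 with the length trend removed and 1 rise on the TPM scale. Of 34 nuclear genes of respiratory complex I all 34 fell, with a median log2 fold change of -0.31, and 20 fell with the length trend removed (median -0.14). Of 76 cytosolic ribosomal protein genes 34 fell (median -0.14), but 12 fell without vehicle library 48, 17 without treated library 76, 7 in a fit of the 12 libraries only and 12 on the TPM scale, and 3 fell and 1 rose with the length trend removed (median 0.019). Of 322 zinc finger genes named Zfp 146 rose and 21 fell, and 141 rose and 27 fell with the length trend removed. Of 17 major urinary protein genes 8 rose and none fell, whereas on log2(TPM + 1) 7 rose and 1 fell, and 3 rose with a minimum of 10 in every library.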
